A study of Mus musculus with 32 samples.

Results

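The genes described here are 9 markers and coreceptors of B cells: Ms4a1, Cd22, Cd37, Cd72, Cr2, Fcer2a, Btla, Tnfrsf13c and Fcrla. They were chosen by name, and each is represented by its probe set with a single gene symbol and the highest mean over all 32 arrays. All 9 were found, each with 1 such probe set, among 19938 genes of the deposited table. The series compared BAL17, a B cell lymphoma line of BALB/c mice, with BAL17VII, a line derived from it, in culture and after growth in the brain, where they were used to induce a primary brain lymphoma. The 6 groups were 6 arrays of cultured BAL17 cells, 6 arrays of cultured BAL17VII cells, 5 whole brains of wild-type BALB/c mice 21 days after 500000 BAL17 cells were implanted, 5 brains 21 days after 500000 BAL17VII cells, 5 brains 28 days after BAL17 cells, and 5 brains 28 days after PBS. No age of the mice is given. For cultured cells as for brains, the extraction label names sections of frozen tissue. The implanted cells and the hosts are of 1 strain, so the hosts' own B cells carry the same genes. There was no PBS group at day 21 and no BAL17VII group at day 28. Nothing states that the arrays of a group are separate cultures or separate mice, so the tests measure the spread between these arrays, which may be technical.

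B cells read antigen through the B cell receptor, and the proteins beside it on the surface set how strong that signal becomes. Cr2 (complement receptor CD21) works with partners such as Cd81 to lower the threshold, while Cd22, Cd72 and Btla carry inhibitory motifs that recruit phosphatases such as Ptpn6 and damp the signal. Tnfrsf13c is the receptor for the survival factor BAFF. Ms4a1 encodes CD20, the target of rituximab, Cd37 is a tetraspanin, Fcer2a encodes the low-affinity IgE receptor CD23, and Fcrla is an Fc receptor-like protein that stays inside the B cell. Many of these proteins are used to define mature B cells and B cell lymphomas by antibody staining.

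The labels were checked with 7 B lineage genes that are not among the 9 (Cd79a, Cd79b, Pax5, Ebf1, Pou2af1, Blk and Vpreb3). Their summed intensity was 4563 to 4826 in BAL17 cells, 4921 to 6162 in BAL17VII cells and 626 to 735 in PBS brains. In both implanted BAL17 groups it was 1496 to 1928, and in BAL17VII brains 688 to 1808. The 7 genes were not uniform. In each cultured line 1 of them exceeded the array median on no array, and 1 exceeded it on every PBS brain. Of the 6 tested in BAL17 brains at day 21, 5 were higher and 1 lower than in PBS brains, where 13.1% of all genes were called higher. All 7 neuronal genes examined exceeded the median of every brain array, and none did so on every array of a cultured line. A single BAL17VII brain, replicate 1, stood at the PBS level: the mean log2 intensity of the 7 B lineage genes was 6.28 there, against 6.10 to 6.39 in the PBS brains and 7.14 to 7.81 in the other 4 BAL17VII brains. Its Mki67, a gene of dividing cells, was at 5.59, against 5.43 to 5.83 in PBS brains and 8.24 to 8.73 in the other 4. Calls of the 9 genes that change without this brain are given with and without it. In whole brain, more lymphoma cells and more RNA per cell cannot be told apart.

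Promoter windows are printed for Btla, Cd37 and Cd72. For these 3 genes the difference between the lines was called as different in the brain and in culture, as described below. The windows come from RefSeq (GRCm38.p6) and run from 250 bases before the transcription start to 50 bases after it, on the strand of the gene. RefSeq entries were at hand for 8 of the 9 genes, all but Ms4a1. Capitals mark GAGGAA or its reverse complement TTCCTC, the core recognised by the B cell and myeloid factor PU.1.
Btla, chr16:45224087-45224386, plus strand: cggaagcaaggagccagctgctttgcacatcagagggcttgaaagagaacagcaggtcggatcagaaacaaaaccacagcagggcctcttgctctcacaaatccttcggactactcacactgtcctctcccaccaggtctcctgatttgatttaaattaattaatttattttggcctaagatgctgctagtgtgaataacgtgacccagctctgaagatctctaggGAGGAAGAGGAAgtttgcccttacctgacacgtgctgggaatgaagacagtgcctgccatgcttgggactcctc
Cd37, chr7:45238790-45239089, minus strand: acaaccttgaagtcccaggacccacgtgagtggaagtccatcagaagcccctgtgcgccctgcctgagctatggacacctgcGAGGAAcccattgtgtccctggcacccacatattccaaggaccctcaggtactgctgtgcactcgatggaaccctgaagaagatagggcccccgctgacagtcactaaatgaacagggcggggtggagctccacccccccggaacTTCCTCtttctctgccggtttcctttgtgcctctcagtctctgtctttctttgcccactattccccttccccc
Cd72, chr4:43454577-43454876, minus strand: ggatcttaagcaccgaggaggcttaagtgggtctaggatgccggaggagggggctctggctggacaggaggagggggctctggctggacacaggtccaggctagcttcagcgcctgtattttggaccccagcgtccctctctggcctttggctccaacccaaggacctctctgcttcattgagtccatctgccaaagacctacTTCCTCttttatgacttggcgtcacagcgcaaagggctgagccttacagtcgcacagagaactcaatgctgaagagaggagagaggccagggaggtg

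The Btla window holds the core in 2 adjoining copies that begin at -24 and -18, counted from the start. The Cd37 window holds it at -168 and, on the other strand, at -23. The Cd72 window holds it on the other strand at -47. Of the 8 genes with an entry, 4 hold the core (these 3 and Fcrla), and 28.3% of all 32851 promoter windows of this length do. The 8 genes have 10 windows, and a gene counts if any of its windows holds the core. The shares of all windows, here and below, are per window, so the 2 are not counted alike. The octamer ATGCAAAT, bound by Pou2f2 and its coactivator Pou2af1, was in none of the 8 and in 1.74% of all windows on either strand. The EBF core, TCCC and GGGA with 2 bases between them, was in the Cd22 window and in 0.904% of all windows. No match of one motif overlaps a match of another in these windows. They were chosen after the windows had been seen, and a match is a description of letters, not a binding site.

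The level of each gene on every array is plotted by group. Cd37, Cd72, Cd22 and Fcrla followed 1 order: highest in the cultured lines, intermediate in the implanted brains and lowest in PBS brains. Tnfrsf13c was nearly level between the lines and the BAL17 brains. Ms4a1 and Btla broke the order, and Cr2 and Fcer2a stayed below the array median on all 32 arrays.

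**Figure D1:**
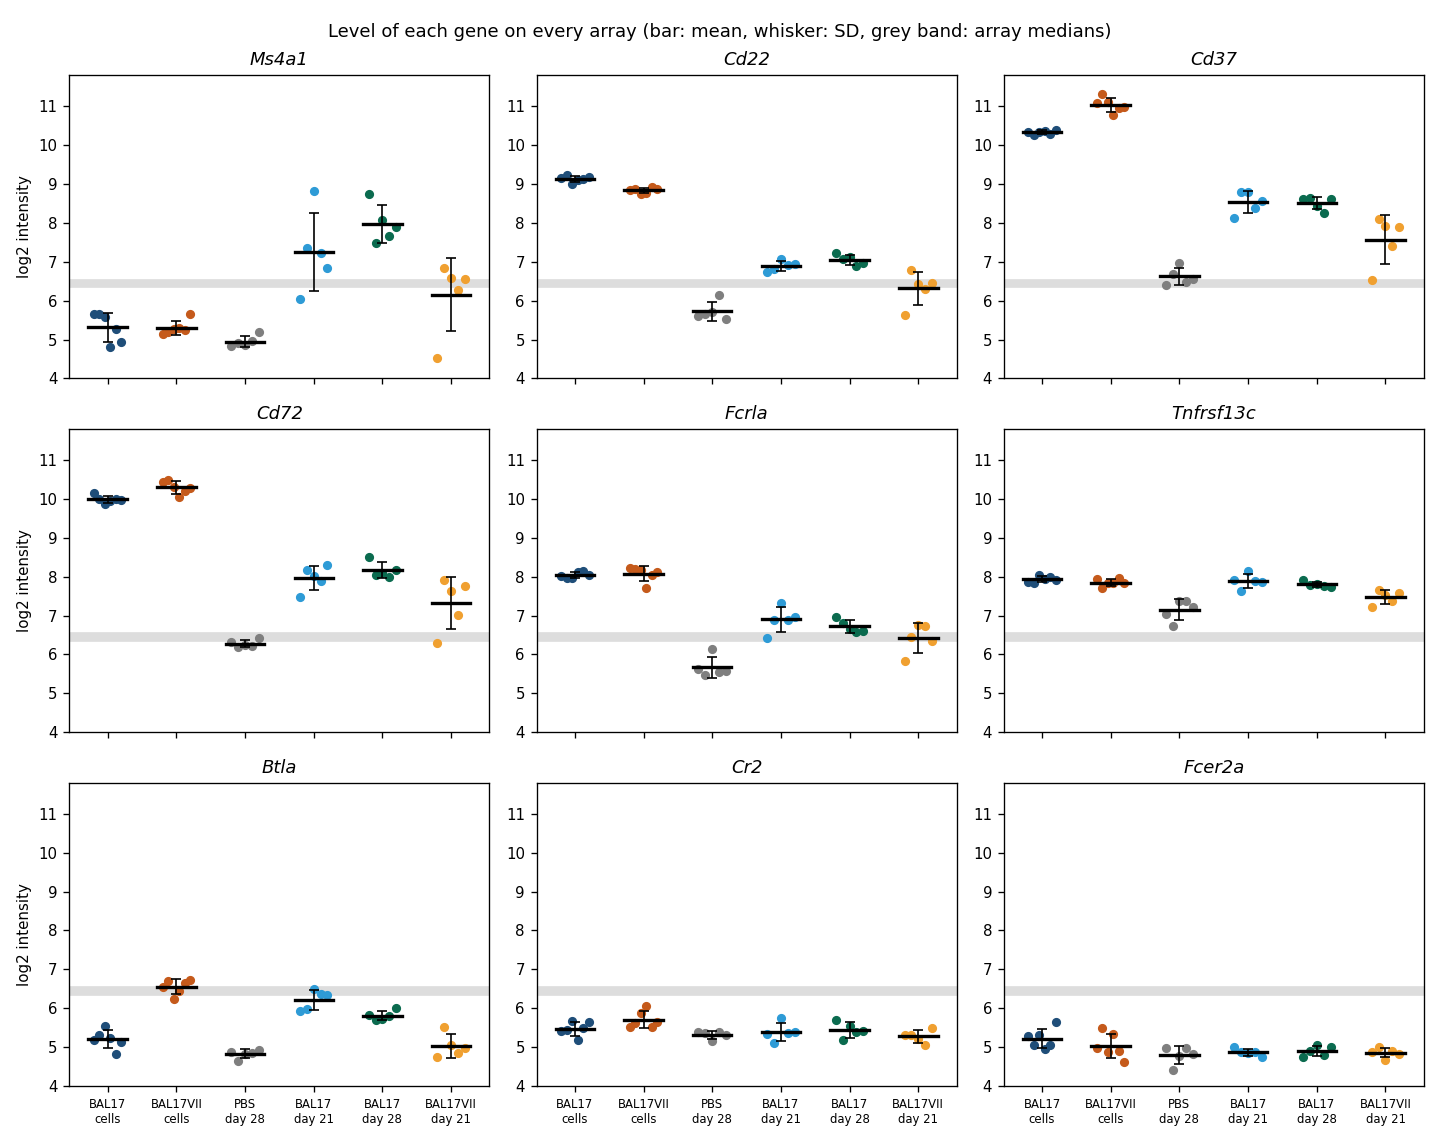
Log2 intensity (y axis) of each of the 9 genes on each of the 32 arrays, by group (x axis); points are arrays, the horizontal bar is the group mean, the whisker is the SD and the grey band spans the array medians, 6.35 to 6.54. Ms4a1 lies at 4.81 to 5.65 in both cultured lines and at 7.48 to 8.74 in BAL17 brains at day 28.

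The first comparison asks how the derived line differs from its parent in culture. Of the 9 genes, Cd37 and Cd72 were higher in BAL17VII cells, Cd22 was lower, and Btla was higher by the largest step. Cd37 read 10.34, 10.26, 10.32, 10.36, 10.28 and 10.39 (log2 intensity) on the arrays of BAL17 cells and 11.08, 11.32, 11.09, 10.76, 10.95 and 10.96 on those of BAL17VII cells. These values do not overlap, and the difference was 0.70 ± 0.08 (log2 difference ± SE, adjusted p = 2.15e-06). Here and below, the test is limma on log2 intensities with Benjamini-Hochberg adjustment over all genes tested, and a gene is called at an adjusted p under 0.05.

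Cd22, the sialic acid-binding inhibitory receptor, read 9.01 to 9.22 in BAL17 cells (median 9.14) and 8.75 to 8.91 in BAL17VII cells (median 8.85), with no overlap. It fell by 0.30 ± 0.06 (adjusted p = 0.000514). Cd72, an inhibitory receptor of the C-type lectin family, read 9.88 to 10.15 in BAL17 cells (median 9.98) and 10.04 to 10.47 in BAL17VII cells (median 10.29). The ranges overlap, and the difference was 0.30 ± 0.07 (adjusted p = 0.00456). In fits over all 32 arrays, which share 1 estimate of the spread with the brains, Cd72 lost its call, with an adjusted p of 0.176 over the 10717 genes of the line fit and 0.205 over 13166 genes. Cd22 kept its call over the first set of genes (adjusted p = 0.0457) and lost it over the second (adjusted p = 0.0572).

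Fcrla and Tnfrsf13c were not called between the lines, with 95% intervals of the difference from -0.13 to 0.20 for Fcrla and from -0.21 to 0.04 for Tnfrsf13c. So 5 of the 9 genes were tested, 2 were called higher and 1 lower, while 17.3% of the 10717 genes tested were called higher and 14.5% lower. The other 4 genes did not exceed the array median on at least 6 of the 12 arrays and were not in that fit. Without the filter on low values, 8.48% of 19938 genes were called higher in BAL17VII cells, and Btla was among them.

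Btla, the inhibitory receptor whose ligand is Tnfrsf14 (HVEM), read 5.17, 5.31, 5.56, 5.25, 4.84 and 5.13 in BAL17 cells. In BAL17VII cells it read 6.55, 6.71, 6.23, 6.45, 6.66 and 6.74. Every BAL17VII array was above every BAL17 array, with a difference of 1.35 ± 0.11 (adjusted p = 7.39e-07, no filter). Ms4a1 did not separate the lines: its mean was 5.31 ± 0.37 (SD, n = 6) in BAL17 cells and 5.30 ± 0.18 (SD, n = 6) in BAL17VII cells. The 95% interval of that difference ran from -0.33 to 0.31, and no array of either line was above the array median for this gene. A level that low carries no detection call, so it is not a measured absence.

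The implanted brains were next compared with PBS brains, as levels in whole tissue. In BAL17 brains at day 21, the 6 genes that passed the filter (Ms4a1, Cd22, Cd37, Cd72, Tnfrsf13c and Fcrla) were all higher than in PBS brains, with no overlap between the groups, where 13.1% of 11965 genes were called higher. At day 28 the same 6 were again all higher and free of overlap, where 8.87% were called higher. These shares count calls by limma. The share of all genes free of overlap was not counted, so the absence of overlap is a description. Both comparisons use the same 5 PBS brains. Ms4a1, Cd22 and Fcrla exceeded the array median on no PBS array, so in the brains these genes passed the filter through the implanted groups, and the count of called genes is a description.

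Ms4a1 stood highest of the 9 by difference. It read 4.83, 4.91, 4.86, 4.96 and 5.19 in the PBS brains and 6.05, 7.36, 8.81, 7.21 and 6.84 in BAL17 brains at day 21. At day 28 it read 8.74, 7.48, 8.08, 7.67 and 7.89. All 10 BAL17 brains were above all PBS brains, and the differences were 2.31 ± 0.40 at day 21 (adjusted p = 0.000105) and 3.02 ± 0.40 at day 28 (adjusted p = 1.17e-05).

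The day 21 brain with the highest Ms4a1, replicate 3 at 8.81, also held the highest level of plasma cell genes. Its Jchain, the joining chain of secreted antibody, was at 9.40, against 3.79 to 5.52 in the other 4 brains of that group. The summed intensity of 8 plasma cell genes was 1290 there and at most 556 in the other 4. Without that brain the Ms4a1 difference from PBS at day 21 was 1.92 ± 0.35 (adjusted p = 0.000243). The part of plasma cells in the level of Ms4a1 was not tested.

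Cd37 read 6.40, 6.69, 6.98, 6.48 and 6.55 in the PBS group, 8.12, 8.79, 8.78, 8.37 and 8.57 in BAL17 brains at day 21 and 8.61, 8.62, 8.43, 8.26 and 8.60 at day 28. It was higher by 1.90 ± 0.21 (adjusted p = 5.91e-07) and 1.88 ± 0.21 (adjusted p = 1.40e-06). Cd72 rose by 1.69 ± 0.21 and 1.88 ± 0.21, from 6.20 to 6.43 in PBS brains to 7.48 to 8.29 at day 21 and 7.99 to 8.51 at day 28. Cd22 rose by 1.16 ± 0.15 and 1.32 ± 0.15, and Fcrla by 1.23 ± 0.17 and 1.05 ± 0.17. Tnfrsf13c, which was above the array median on all 32 arrays including the PBS brains, rose by 0.73 ± 0.11 and 0.64 ± 0.11.

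Btla did not pass the filter in the brains. It read 4.89, 4.65, 4.83, 4.86 and 4.94 in the PBS group, 5.93, 5.97, 6.50, 6.37 and 6.34 in BAL17 brains at day 21 and 5.82, 5.71, 5.73, 5.82 and 5.997 at day 28. Without the filter the differences were 1.39 ± 0.13 (adjusted p = 5.46e-08) and 0.98 ± 0.13 (adjusted p = 8.46e-06), where 11.0% and 6.56% of 19938 genes were called higher. Every BAL17 brain was above every PBS brain for this gene.

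BAL17VII brains at day 21 rose less far above PBS. Of the 6 genes tested, 4 were called higher (Cd22, Cd37, Cd72 and Fcrla), where 3.37% of all genes were. With all 5 brains, for none of them were the groups free of overlap. Without replicate 1 the lowest BAL17VII value was above the highest PBS value for these 4 genes. The values were 7.40 against 6.98 for Cd37 and 7.02 against 6.43 for Cd72. For Cd22 they were 6.30 against 6.15, and for Fcrla 6.35 against 6.14. The share of all genes free of overlap was not counted. Cd37 read 6.53, 8.10, 7.92, 7.40 and 7.88, the first value being the brain at the PBS level, and was 0.95 ± 0.21 above PBS (adjusted p = 0.00920). Cd72 was 1.03 ± 0.21 above PBS (adjusted p = 0.00553), Fcrla 0.75 ± 0.17 (adjusted p = 0.00943) and Cd22 0.60 ± 0.15 (adjusted p = 0.0222). Cd22 lost its call without BAL17VII replicate 2 (adjusted p = 0.0919) or 3 (0.0683), without PBS replicate 1 (0.0567) or 5 (0.0640), and with the arrays of these 2 groups alone (0.110). With those arrays alone Cd37 lost its call as well (adjusted p = 0.0633).

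Ms4a1 read 4.52, 6.85, 6.57, 6.28 and 6.56 in these brains, a difference of 1.21 ± 0.40 with a 95% interval from 0.38 to 2.04 (adjusted p = 0.0806). Tnfrsf13c differed by 0.32 ± 0.11, with an interval from 0.08 to 0.55 (adjusted p = 0.106). Without replicate 1 all 6 were called: Ms4a1 at 1.62 ± 0.34 (adjusted p = 0.00342) and Tnfrsf13c at 0.38 ± 0.11 (adjusted p = 0.0495). Btla read 4.76, 5.53, 5.07, 4.84 and 4.98, overlapping the PBS brains, with a 95% interval of the difference from -0.06 to 0.46 (adjusted p = 0.467, no filter).

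**Figure D2:**
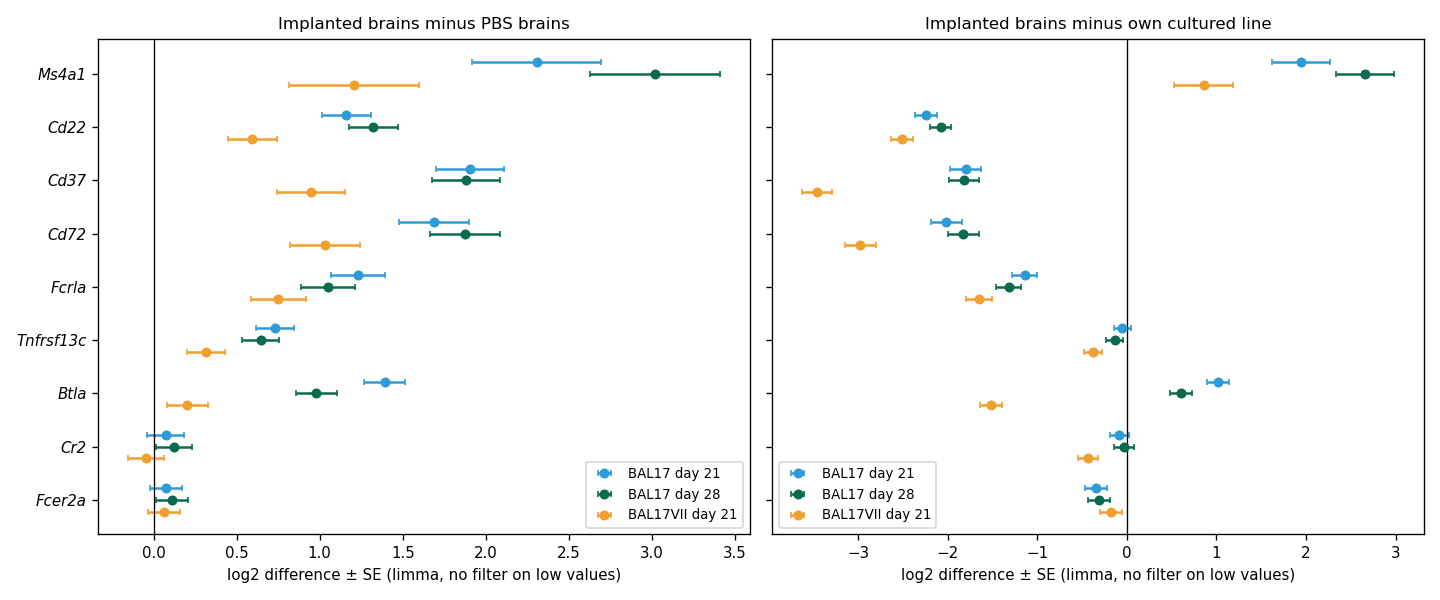
Log2 difference ± SE (x axis, limma without the filter on low values) of the 9 genes (y axis) between implanted and PBS brains (left) and between implanted brains and the cultured line they came from (right). On the right, Ms4a1 lies above 0 in all 3 brain groups, Btla lies above 0 in both BAL17 groups (1.02 and 0.60) and below it in BAL17VII brains (-1.52), and Cd22, Cd37, Cd72 and Fcrla lie below 0.

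Each implanted group was also set against its own cultured line. The brain arrays hold RNA of lymphoma and brain tissue together, and the part of this mixture in the differences was not tested. This comparison was added after the data were seen. In BAL17 brains at day 21, Cd22 fell by 2.24 ± 0.12, Cd72 by 2.02 ± 0.17, Cd37 by 1.80 ± 0.17 and Fcrla by 1.14 ± 0.14. At day 28 the differences were -2.08 for Cd22, -1.83 for Cd72, -1.82 for Cd37 and -1.32 for Fcrla. So 4 of the 7 genes tested were called lower at each day, where 45.9% (day 21) and 46.7% (day 28) of 13166 genes were. With so few genes this is near the share of all genes, and the count is a description. Tnfrsf13c was called at neither day, with differences of -0.05 ± 0.09 and -0.14 ± 0.09.

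Ms4a1 and Btla went the other way. The 6 arrays of BAL17 cells read 5.65, 5.65, 5.59, 4.81, 5.26 and 4.93 for Ms4a1, and the lowest of the 10 BAL17 brains read 6.05. Ms4a1 was higher in the brain than in its own cells by 1.94 ± 0.33 at day 21 (adjusted p = 2.98e-06) and by 2.66 ± 0.33 at day 28 (adjusted p = 8.08e-09). Without the day 21 brain rich in Jchain the first value was 1.55 ± 0.30 (adjusted p = 2.03e-05). Btla was higher by 1.02 ± 0.12 (adjusted p = 5.21e-09) and by 0.60 ± 0.12 (adjusted p = 4.34e-05). These 2 were the genes called higher at each day, where 33.4% (day 21) and 34.0% (day 28) of all genes were called higher. No array of BAL17 cells was above the array median for either gene. Ms4a1 passed the filter through implanted brains. Btla passed it through 4 arrays of BAL17VII cells and 1 BAL17 brain at day 21. For both genes the count of called genes is therefore a description.

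Genes at which every BAL17 brain exceeded every array of BAL17 cells and every PBS brain were few. At day 21 there were 41 of 13166 (0.311%), and 2 of the 9 genes, Ms4a1 and Btla, were among them. At day 28 there were 25 (0.190%), again with Ms4a1 and Btla. At day 28 Ms4a1 had the second widest gap, 1.83 between its lowest brain and the highest of the other arrays, after H2-Ea at 3.11. The list at both days also held H2-Aa, Cd74, H2-Eb1, Fcmr, Cd48, Lyz2 and Cxcl13, names taken after their values were seen. In BAL17VII brains there were 13 such genes and none of the 9, but 4 of the 5 brains (6.28 to 6.85) were above all 6 arrays of BAL17VII cells (5.15 to 5.65) for Ms4a1. There the difference was 0.86 ± 0.33 (adjusted p = 0.0179), and 1.26 ± 0.29 without replicate 1 (adjusted p = 0.000170). The call was lost without replicate 2 (0.68 ± 0.35, adjusted p = 0.0686) or replicate 3 (0.75 ± 0.35, adjusted p = 0.0505) of these brains.

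In BAL17VII brains Btla did the opposite of what it did in BAL17 brains. It fell by 1.52 ± 0.12 against BAL17VII cells (adjusted p = 3.25e-13), from 6.23 to 6.74 in culture to 4.76 to 5.53 in the brain. The difference was -3.46 ± 0.17 for Cd37, -2.97 ± 0.17 for Cd72, -2.51 ± 0.12 for Cd22, -1.65 ± 0.14 for Fcrla and -0.38 ± 0.09 for Tnfrsf13c. That made 6 of 7 tested genes lower, where 46.9% of all genes were, and 1 higher, Ms4a1, where 36.3% were. Btla passed the filter mainly through BAL17VII cells and Ms4a1 through implanted brains, so for both the count is a description. In all 3 of these comparisons the cultured lines and the brains also differ in the series of sample codes that the submitters gave them, so the material and any difference in handling cannot be told apart.

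The direct comparison of the lines in the brain at day 21 gave lower means in BAL17VII brains for the 6 tested genes. All 6 were called, where 6.82% of all genes were called lower, but the calls of Ms4a1, Fcrla and Cd72 depended on the settings. Those of Ms4a1 and Fcrla were lost without the filter (adjusted p = 0.0647 and 0.0547), after quantile normalization (0.0627 and 0.0610) and after centring on the median (0.0578 and 0.0669). That of Cd72 was lost with array weights (0.0597) and with the arrays of these 2 groups alone (0.106). Cd37 fell by 0.96 ± 0.21 (adjusted p = 0.00275), and its values were the only ones of the 6 without overlap, 6.53 to 8.10 against 8.12 to 8.79. Cd22 fell by 0.57 ± 0.15, Tnfrsf13c by 0.42 ± 0.11, Cd72 by 0.65 ± 0.21, Fcrla by 0.48 ± 0.17 and Ms4a1 by 1.10 ± 0.40, with adjusted p from 0.00982 to 0.0492. Leaving out BAL17VII replicate 1 left 3 calls (Cd22, Cd37 and Tnfrsf13c), and leaving out BAL17 replicate 3, 4 or 5 at day 21 also left 3. Without BAL17VII replicate 1 the difference was -0.69 ± 0.34 for Ms4a1 (adjusted p = 0.170), -0.40 ± 0.16 for Cd72 (adjusted p = 0.0948) and -0.33 ± 0.15 for Fcrla (adjusted p = 0.141). Without BAL17 replicate 3 it was -0.71 ± 0.35 for Ms4a1 (adjusted p = 0.146). Btla fell by 1.19 ± 0.13 (adjusted p = 4.74e-06, no filter), where 4.55% of 19938 genes were called lower, with every BAL17VII brain (4.76 to 5.53) below every BAL17 brain (5.93 to 6.50).

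A further test asked whether the difference between the lines was itself different in the brain and in culture. The brain difference minus the culture difference was -2.54 ± 0.17 for Btla (adjusted p = 1.18e-12), -1.66 ± 0.24 for Cd37 (adjusted p = 4.25e-06) and -0.96 ± 0.25 for Cd72 (adjusted p = 0.00437). These 3 genes were higher in BAL17VII cells in culture and lower in BAL17VII brains. So 3 of the 7 tested genes were called lower, where 10.9% of 13166 genes were. Without BAL17VII replicate 1 the values were -2.47 ± 0.18, -1.40 ± 0.17 and -0.70 ± 0.18, all still called. Btla passed the filter through 4 arrays of BAL17VII cells and 1 BAL17 brain at day 21, groups in which it was high. For Btla the count of called genes is therefore a description.

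The difference of differences was also negative but not called for Ms4a1 (-1.09 ± 0.47, adjusted p = 0.0852), Fcrla (-0.51 ± 0.20, adjusted p = 0.0547), Tnfrsf13c (-0.33 ± 0.13, adjusted p = 0.0699) and Cd22 (-0.27 ± 0.17, adjusted p = 0.268). The mean log2 intensity of the 7 B lineage genes was 7.65 ± 0.13 (SD, n = 5) in BAL17 brains and 7.23 ± 0.58 (SD, n = 5) in BAL17VII brains at day 21, and the part of lymphoma content in each result was not tested.

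**Figure D3:**
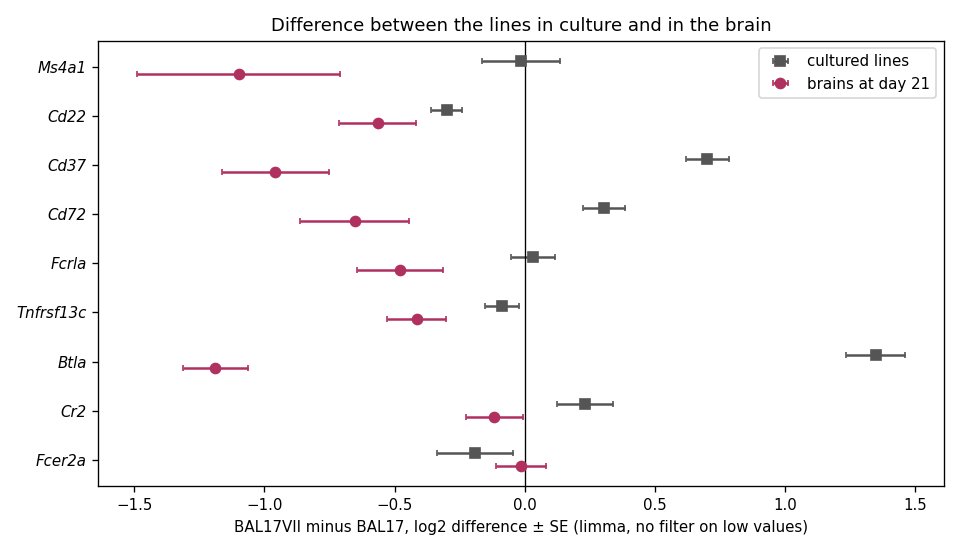
BAL17VII minus BAL17 (x axis, log2 difference ± SE, limma without the filter on low values) for the 9 genes (y axis), in cultured cells (squares) and in brains at day 21 (circles). Btla moves from 1.35 in culture to -1.19 in the brain, and Cd37 and Cd72 also lie on opposite sides of 0.

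Between day 21 and day 28 of BAL17 growth no gene of the 6 tested was called by limma, where 1.50% of all genes were called in either direction, and none of the 6 reached an unadjusted p under 0.05. The widest 95% interval was that of Ms4a1, from -0.11 to 1.55 (difference 0.72 ± 0.40), and the narrowest that of Tnfrsf13c, from -0.32 to 0.15. Btla was lower at day 28 by 0.41, with a 95% interval from -0.67 to -0.15 that carries no adjustment (adjusted p = 0.158, no filter). These intervals leave room for changes of the size of several differences above, so they do not show that the levels were equal.

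Cr2 and Fcer2a gave little signal anywhere. The group means of Cr2 ran from 5.28 in BAL17VII brains to 5.71 in BAL17VII cells, and those of Fcer2a from 4.80 in PBS brains to 5.22 in BAL17 cells. Neighbouring groups in either order overlapped throughout. In BAL17 brains the 95% interval of the difference from PBS was -0.15 to 0.30 for Cr2 and -0.12 to 0.27 for Fcer2a at day 21, and -0.10 to 0.35 and -0.09 to 0.31 at day 28. Against their own line, and without the filter, Cr2 fell by 0.43 ± 0.11 in BAL17VII brains (adjusted p = 0.000878), and Fcer2a fell by 0.35 ± 0.12 in BAL17 brains at day 21 (adjusted p = 0.0132) and by 0.31 ± 0.12 at day 28 (adjusted p = 0.0237). Both genes were below the array median on every array.

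Each gene was also read as its log2 level minus the mean of the 7 B lineage genes on the same array. No test was made on this scale. The reference falls from the lines to the brains, so a gene near the floor of the array moves up on it without a change of its own level. Cr2, below the array median on every array, ran from -3.53 and -3.44 in BAL17 and BAL17VII cells to -2.25, -2.26 and -1.95 in BAL17 brains at day 21 and day 28 and BAL17VII brains, and to -0.99 in PBS brains. Fcer2a ran from -3.78 and -4.12 to -2.78, -2.80 and -2.37, and to -1.51 in PBS brains. The values of Ms4a1 and Btla are to be read against these. For Ms4a1 it was -3.69 ± 0.37 (SD, n = 6) in BAL17 cells and -3.85 ± 0.24 (SD, n = 6) in BAL17VII cells. It was -0.39 ± 0.96 in BAL17 brains at day 21, 0.26 ± 0.44 at day 28 and -1.07 ± 0.38 in BAL17VII brains (SD, n = 5 each). The highest cultured array (-3.36) was below the lowest BAL17 brain (-1.40) and the lowest BAL17VII brain (-1.76). Cr2 and Fcer2a also separated on this scale, so the lack of overlap is not particular to Ms4a1. The highest cultured array and the lowest implanted brain were at -2.93 and -2.54 for Cr2 and at -3.37 and -3.07 for Fcer2a. In PBS brains, Ms4a1 was at -1.36 ± 0.13. The scale depends on the genes in the reference. Without Blk in it, Ms4a1 was at -4.20 in BAL17 cells and -4.38 in BAL17VII cells. Without Ebf1 it was at -1.06 in PBS brains.

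For Btla the same measure was -3.80 ± 0.23 in BAL17 cells and -2.60 ± 0.17 in BAL17VII cells (SD, n = 6 each), and -1.42 ± 0.21, -1.90 ± 0.11 and -2.19 ± 0.39 in BAL17 brains at day 21 and day 28 and in BAL17VII brains (SD, n = 5 each). In PBS brains it was -1.48 ± 0.17 (SD, n = 5), and -1.17 without Ebf1 in the reference. Without Blk the Btla means were -4.30 and -3.12 in BAL17 and BAL17VII cells, and -1.74 and -2.24 in BAL17 brains at day 21 and day 28. The ranges at day 21 overlapped, -1.69 to -1.17 in BAL17 and -2.50 to -1.51 in BAL17VII brains. Cd37 ran from 1.32 and 1.87 in the BAL17 and BAL17VII cells to 0.88 in BAL17 brains and 0.34 in BAL17VII brains at day 21, with 0.31 in PBS brains. Cd72 ran from 0.98 and 1.14 to 0.32 and 0.09, with -0.03 in PBS brains. The group means of Fcrla stayed between -1.08 and -0.75 in all 5 groups that held lymphoma. In PBS brains it was -0.64 ± 0.27 (SD, n = 5), with a range of -0.87 to -0.25.

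**Figure D4:**
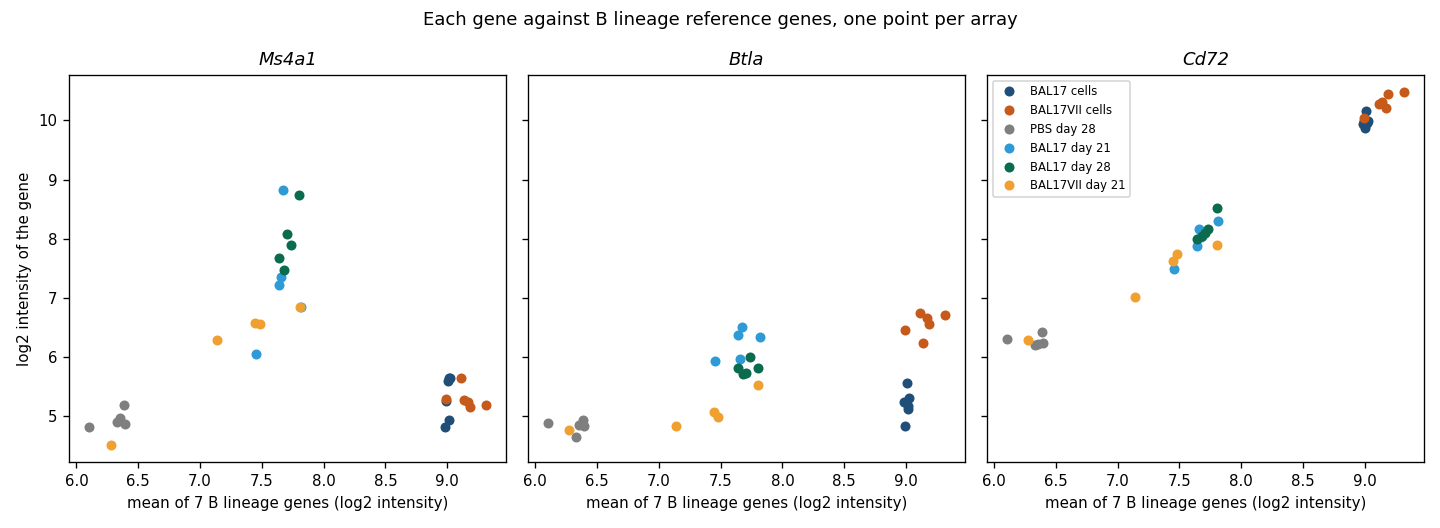
Log2 intensity of Ms4a1, Btla and Cd72 (y axis) against the mean log2 intensity of 7 B lineage genes (x axis), 1 point per array, coloured by group. Cd72 rises with the reference across the groups, while the cultured lines, at 8.98 to 9.32 on the x axis, lie low for Ms4a1, at 4.81 to 5.65.

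Across the 15 implanted brains, with each gene centred on its group, Cd37 and Cd72 were the pair of the 9 with the highest Pearson r, 0.93, and 0.84 without BAL17VII replicate 1. Cd22 followed Cd37 (0.89, and 0.66 without that brain) and Cd72 (0.88, and 0.69). These r values carry no test, and the part of lymphoma content in them was not tested. The genes nearest to Ms4a1 among all genes of the brain fit were Cd52 (0.97, and 0.96 without that brain), Cybb (0.93 and 0.92) and Cd74 (0.91 and 0.87). Cd72 was nearest to Vpreb3 and Cd79a (0.97 and 0.96, and 0.93 and 0.94 without that brain), and Cd37 to Cd79b (0.93 and 0.80). Cd22 was nearest to Cd74 (0.95 and 0.84), Tnfrsf13c to Ly75 (0.88 and 0.83), Fcrla to H2-Ob (0.85 and 0.80) and Btla to A630001G21Rik (0.87 and 0.93). Without that brain the order among these nearest genes changed for several: Mzb1 (0.81) passed Cd79b for Cd37, Syngr2 (0.86) passed Ly75 for Tnfrsf13c, and Cd79a passed Vpreb3 for Cd72.

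Cd52, a small surface glycoprotein of lymphocytes, had another pattern in culture: its mean level was 7.91 in BAL17 cells, 7.87 in BAL17 brains at day 21 and 8.14 at day 28, and 5.55 in PBS brains. The mean of the line thus lay between those of the BAL17 brains, while that of Ms4a1 lay below both. Like Ms4a1, it was highest in replicate 3 of the day 21 BAL17 brains (9.31) and replicate 1 of the day 28 brains (8.85) within their groups, and lowest in replicate 1 of the BAL17VII brains (5.04).

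The genes that work with these receptors were described by lists. Of the 8 named genes of the B cell receptor and its coreceptor complex, 7 were tested in culture and 4 were higher in BAL17VII cells: Btk (0.57 ± 0.05), Ptprc (0.61 ± 0.06), Syk (0.69 ± 0.09) and Cd79b (0.44 ± 0.07). Cd81, the tetraspanin partner of Cr2, fell by 0.33 ± 0.06. The median difference was 0.44, against 0.00 over all genes, of which 17.3% were called higher and 14.5% lower. In BAL17 brains at day 21 7 of 8 were higher than in PBS brains, where 13.1% of all genes were called higher. They were led by Btk (2.89 ± 0.24), Ptprc (2.75 ± 0.29) and Cd79b (2.84 ± 0.30). The list's median was 1.63, against -0.11 over all genes.

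Of 10 tested genes that signal below the inhibitory receptors and the B cell receptor, 7 were higher in BAL17VII cells in culture and none lower. Of all genes, 17.3% were called higher and 14.5% lower. The 7 were led by Prkcb (1.24 ± 0.08), Inpp5d (0.74 ± 0.06) and Pik3r1 (0.89 ± 0.09). Inpp5d encodes SHIP-1, a lipid phosphatase that damps B cell receptor signals, while Prkcb, Plcg2 and Vav1 act in activating signalling. In the brain at day 21, Inpp5d was lower in BAL17VII than in BAL17 brains by 0.62 ± 0.09 (adjusted p = 9.91e-05), and by 0.53 ± 0.08 without BAL17VII replicate 1 (adjusted p = 0.000175). Vav1 and Plcg2 were also called lower, and neither was without that brain (adjusted p = 0.0616 and 0.141). The difference of differences was called lower for 7 of these 10 genes, where 10.9% of all genes were, and none was higher. Inpp5d was at -1.36 ± 0.11, and the list's median was -0.74, against 0.03 over all genes. Without that brain 7 were called lower as well, where 9.59% of all genes were. Birc3, a target of BAFF receptor signalling, also changed sides: it was 1.01 ± 0.07 higher in BAL17VII cells and 0.79 ± 0.17 lower in BAL17VII brains at day 21, a difference of -0.66 ± 0.16 without replicate 1 (adjusted p = 0.00863). Of the 7 tested genes of the BAFF receptor pathway, 5 were called lower in the difference of differences and none higher, where 10.9% of all genes were called lower. The median was -0.38, against 0.03 over all genes, and 3 were called lower without BAL17VII replicate 1.

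Ligands of the receptors were less well covered. Of 8 named genes in a list of ligands and glycan enzymes, 4 were tested in the brains. Cmah, which makes the sialic acid form that mouse Cd22 prefers, was 2.63 ± 0.25 higher in BAL17 brains at day 21 than in PBS brains (adjusted p = 9.71e-08), and 1.97 ± 0.25 higher in BAL17VII brains (2.32 ± 0.14 without replicate 1). Tnfrsf14, the ligand of Btla, was 0.22 ± 0.08 higher in BAL17VII cells in culture (adjusted p = 0.0489). Tnfsf13b, which encodes BAFF, had group means from 5.57 to 5.87 and was in none of the fits. Of the 24 named genes of other B cell surface proteins, 15 of 19 tested were higher in BAL17VII cells, led by Cd48 (2.80 ± 0.12), Cd52 (1.07 ± 0.08) and Ly86 (0.63 ± 0.05), where 17.3% of all genes were. The median difference was 0.46, against 0.00 over all genes. In the difference of differences 15 of 20 were lower, led by Cd48 (-2.87 ± 0.26), Cd86 (-1.50 ± 0.16) and Cd40 (-1.13 ± 0.12), where 10.9% of all genes were called lower, and 15 were without BAL17VII replicate 1. The median was -0.71, against 0.03 over all genes.

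Markers of other cells moved in the same brains, and their part in the levels of the 9 genes was not tested. Lyz2, a macrophage gene, was at 7.44 ± 0.40 in the PBS group, 9.01 ± 0.43, 9.29 ± 0.64 and 8.73 ± 0.68 in BAL17 brains at day 21 and day 28 and BAL17VII brains (SD, n = 5 each). The summed intensity of the macrophage and monocyte list was 1243 to 2043 in BAL17 brains at day 21, against 1037 to 1476 in PBS brains. Of its 7 tested genes 3 were higher and 2 lower in BAL17 brains at day 21, where 13.1% of all genes were called higher. Of 11 named T cell genes 2 were tested there and both were higher, with a summed intensity of 785 to 816 against 464 to 531. The same list summed to 1325 to 1433 in cultured BAL17 cells and 3284 to 3834 in BAL17VII cells, so it does not separate T cells from these lines. The T cell marker Cd3e had a mean of 6.56 ± 0.18 against 6.18 ± 0.20 (SD, n = 5 each). Cxcl13, which draws B cells into follicles, was at 7.28 ± 0.86 in BAL17 brains at day 21, 6.39 ± 0.24 at day 28 and 5.85 ± 0.15 in PBS brains (SD, n = 5 each). The 8 genes of dendritic and follicular dendritic cells summed to 549 to 855 at day 21, 532 to 592 at day 28 and 540 to 626 in PBS brains. Of the 3 tested, 2 were higher and 1 lower than in PBS brains at day 21. At day 28, 0 were higher and 1 lower. Of all genes, 13.1% and 8.87% were called higher at these days. Of the tested genes of each list, 6 of 6 microglial, 6 of 7 neuronal and 5 of 6 astrocyte genes were lower in BAL17 brains at day 21 than in PBS brains. The list medians were -0.39, -0.39 and -0.54, against -0.11 over all genes. Of all 11965 genes 1572 were called higher there, and 5244 were called in either direction without PBS replicate 3. Lower calls were thus common, and these counts are a description. In BAL17VII brains 5 of 6 microglial, 5 of 6 astrocyte and 4 of 5 oligodendrocyte genes were higher than in BAL17 brains at day 21, and 3 of 5 genes of dividing cells were lower. The list medians were 0.53, 0.52, 0.50 and -1.09, against 0.07 over all genes, of which 6.82% were called lower. Without BAL17VII replicate 1 the counts were 5, 4, 3 and 1, where 10.3% of all genes were called higher and 4.36% lower. With all 5 brains the share called higher is not given here, so those counts of higher genes are a description. No marker shown here separates B cells of the host from implanted lymphoma cells.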

How the data were processed

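Total RNA was measured on Affymetrix mouse gene arrays. The deposited values are intensities that the authors summarised by RMA. The submitters' processing notes name Affymetrix Expression Console, with no version. They run from 2.72 to 17825, so log2 was taken first. Whether lines and brains were normalized together is not given in the sources used here. No read depth applies, and the number of arrays limits the precision. Of 35556 probe sets, 21789 carried 1 symbol, 1621 several and 12146 none. Symbols were updated through GRCm38.p6 identifiers (21698 matched).

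A gene entered a fit if its level passed the array median on 6 arrays or more (lines) or 5 or more (other fits), the size of the smallest group there. That gave 10717 genes (5 of the 9) for the 12 line arrays, 11965 (6 of 9) for the 20 brain arrays and 13166 (7 of 9) for all 32. Fits used limma 3.58.1 in R 4.3.3, group means, eBayes and Benjamini-Hochberg adjustment, two-sided. Brain groups share 1 estimate of the spread, so SEs are too small where BAL17VII brains vary more. Of the 10 comparisons, 3 (brains against their own line) were added after the data were seen. The members and lists were chosen with earlier results of these data known. Named are all 9 genes, the 3 genes of a described list with the smallest adjusted p plus cell type markers, and the 3 genes nearest each member, of which some are printed. Replicate numbers did not pair the samples. In simulated data for BAL17 day 21 against PBS, 68% of genes changed by 0.5 and 97% of those changed by 1 (log2) were recovered among 11965 genes.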

Additional observations from a re-analysis of the deposited data

Results flagged for a closer look

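Of 54 combinations of a gene and a group, 5 held an array far from the rest of its group, where chance flags about 1 in 20 groups. The BAL17VII brain of replicate 1 read 4.52 for Ms4a1, against 6.28 to 6.85 in the other 4. A cultured BAL17VII array, replicate 6, read 5.65 for Ms4a1, against 5.15 to 5.28. A PBS brain, replicate 4, read 6.15 for Cd22, against 5.52 to 5.70. A PBS brain, replicate 3, read 6.14 for Fcrla, against 5.47 to 5.64. A cultured BAL17VII array, replicate 4, read 7.72 for Fcrla, against 8.04 to 8.22.

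The difference between the lines was not the same in the brain as in culture for 3 genes, by a limma test of the difference of differences: -2.54 for Btla, -1.66 for Cd37 and -0.96 for Cd72 (log2).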

How the results depend on the processing

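Normalization (quantile, or centring on the median), the filter (none, stricter), probe set choice (mean), moderation (trended and robust), weights for arrays, a block for replicate numbers, the arrays fitted, a minimum change and each array's absence were varied in turn. Over 1375 member values, 1299 kept their side of the threshold, 60 lost their call and 16 gained one. Of values called in either fit, 0 reversed direction. A value called in neither fit could change sign and still count as kept. Cd37 between day 21 and day 28 did so, with differences from -0.12 to 0.05. The cause of a change was not tested, except that a stricter filter tests fewer genes.

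With a filter at percentile 75, only Cd37, Cd72 and Tnfrsf13c of the members were tested in the brains. Called members were then 3 in both BAL17 comparisons with PBS, 2 for BAL17VII against PBS and 3 for BAL17VII against BAL17 brains. No tested member lost its call under this filter, and the counts fell because Ms4a1, Cd22 and Fcrla were not tested. A minimum change of 0.5 left 0 calls between the cultured lines, 0 for BAL17VII against PBS and 0 between the lines in the brain. With the arrays of only the compared groups, 2 remained for BAL17VII against PBS and 3 between the lines in the brain. Array weights left 3 there. Leaving out each array gave 3 to 6 for BAL17VII against BAL17 brains, 3 to 6 for BAL17VII against PBS and 3 to 5 for the difference of differences (5 without BAL17 replicate 1 at day 21 or BAL17VII replicate 2).

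Replicate numbers did not pair the samples: correlations of same-numbered deviations ran from -0.41 to 0.54. With the replicate number as a block, called members were 3 between the cultured lines, 6 for BAL17 at day 21 and 6 at day 28 against PBS, 4 for BAL17VII against PBS, 6 between the lines in the brain and 4 in the difference of differences, where Fcrla was gained (adjusted p = 0.0496).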
